A study of Homo sapiens with 16 samples.

Results

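The enzymes that hydroxylate and cross-link collagen were followed through the BJ model of malignant transformation at both oxygen levels. They comprise 10 genes, chosen by name from 19356 protein-coding genes: the prolyl 4-hydroxylase alpha subunits P4HA1 and P4HA2, the lysyl hydroxylases PLOD1, PLOD2 and PLOD3, and the lysyl oxidases LOX, LOXL1, LOXL2, LOXL3 and LOXL4. The model is an isogenic series of human foreskin fibroblast lines. Primary BJ cells were followed by immortalized BJ hTERT+ cells, by transformed BJ hTERT+ SV40+ cells, which also carry the SV40 Large-T antigen, and by metastasizing BJ hTERT+ SV40+ Ras-G12V cells, which further carry mutated H-Ras. Each stage was 1 cell line, so a stage and its line cannot be told apart. All were cultured in DMEM with 10% fetal bovine serum for 6 passages, either at atmospheric oxygen or at 3% oxygen, in 2 parallel plates that the labels call a and b. This gave 8 groups of 2 libraries, or 16 in all, and p-values therefore measure only the spread between parallel plates, which may be technical. Expression was deposited as TPM, a share of all transcripts corrected for their length and scaled to 1000000 in each library, which keeps no record of sequencing depth, so no interval based on counts is given.

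Collagen is modified inside the cell before it is secreted. Prolyl 4-hydroxylases hydroxylate prolines, which keeps the collagen triple helix stable at body temperature, and lysyl hydroxylases hydroxylate lysines, the later sites of sugar attachment and cross-linking. Both families use molecular oxygen, 2-oxoglutarate, iron and ascorbate, and several of their genes are known targets of the hypoxia-inducible factors. Lysyl oxidases are secreted copper enzymes that also use oxygen, and they oxidize lysine and hydroxylysine side chains so that collagen and elastin fibres become cross-linked.

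The labels were checked first. TERT reached at most 0.543 TPM in the 4 primary libraries and lay between 31.6 and 193 TPM in the 12 others. HRAS measured 94.6 and 78.1 TPM in the libraries labelled metastasizing at atmospheric oxygen, which was below the 119.8 and 99 TPM of transformed cells, and 143 and 772 TPM at 3% oxygen. The level of HRAS thus did not set the former libraries apart from transformed cells. TPM do not tell the mutated from the normal transcript, and the mutation itself was not examined here. The libraries labelled metastasizing at 3% oxygen also stood apart from each other: 10.99% of genes differed more than 2-fold between them, against 1.83% to 4.08% in the other groups. Calls of the 10 genes that rest on them are therefore also given without each of them. All 10 fibroblast markers exceeded 1 TPM in every library, with a summed level of 3952 to 22450 TPM that was lowest in the later stages. The 3 endothelial markers matched were under 1 TPM everywhere, the leukocyte marker CD3E was at 0, and the 4 leukocyte markers summed to at most 3.73 TPM. The 5 epithelial markers summed to 119.6 to 678 TPM and the 4 smooth muscle markers to 47.1 to 981 TPM. Among them EPCAM and CDH1 reached at most 1.44 and 2.80 TPM, and MYH11 and DES at most 2.53 and 1.94 TPM. The epithelial sum was thus nearly all KRT8, KRT18 and KRT19, and the smooth muscle sum ACTA2 and CNN1. In bulk RNA, fewer cells of a type and less RNA per cell cannot be told apart.

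Each comparison was made with limma on log2(TPM + 0.5), and calls needed an adjusted p under 0.01 together with a 2-fold change. Fold changes below are on that scale, with the standard error (SE) on the log2 scale, and they understate the change of low genes. All 10 genes were tested in every comparison. At 3% oxygen, 2 of the 10 rose in primary cells (PLOD2 and LOX), where 2.78% of the 12184 genes tested rose and 2.52% fell, and none of the 10 fell. In immortalized cells 2 rose (PLOD2 and LOXL2) and none fell, against 2.13% and 2.78% of all genes. In transformed cells 4 rose (P4HA1, PLOD2, LOX and LOXL4) and none fell, against 4.9% and 2.58%. In the libraries labelled metastasizing none rose and 2 fell (LOXL1 and LOXL4), against 3.06% and 4.6%. Without replicate a at 3% oxygen LOXL4 alone of the 10 was called at this last stage, and without replicate b LOXL3 was called in addition. Over all genes the number called at this stage was 941 with both libraries, 960 without replicate a and 1450 without replicate b, so that background moves with the latter. In order of stage, both libraries at 3% oxygen lay above both at atmospheric oxygen for 7, 5, 7 and 0 of the 10 genes. Of all genes tested, 40.8%, 44.9%, 37.3% and 21.7% did so. Both lay below for 3, 4, 2 and 7 of the 10, against 26.9%, 27.9%, 35.2% and 37.0% of all genes. The median log2 fold change of the 10 genes was 0.64, 0.17, 0.53 and -0.43 in these 4 stages, and that of all genes tested was 0.08, 0.11, 0.01 and -0.13. With median-ratio rescaling the all-gene medians became -0.04, -0.03, 0.03 and -0.01, and the numbers of genes that rose and fell went from 339 and 307 to 254 and 395 in primary cells, from 257 and 335 to 168 and 469 in immortalized cells, and from 376 and 565 to 455 and 447 at the last stage.

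**Figure D1:**
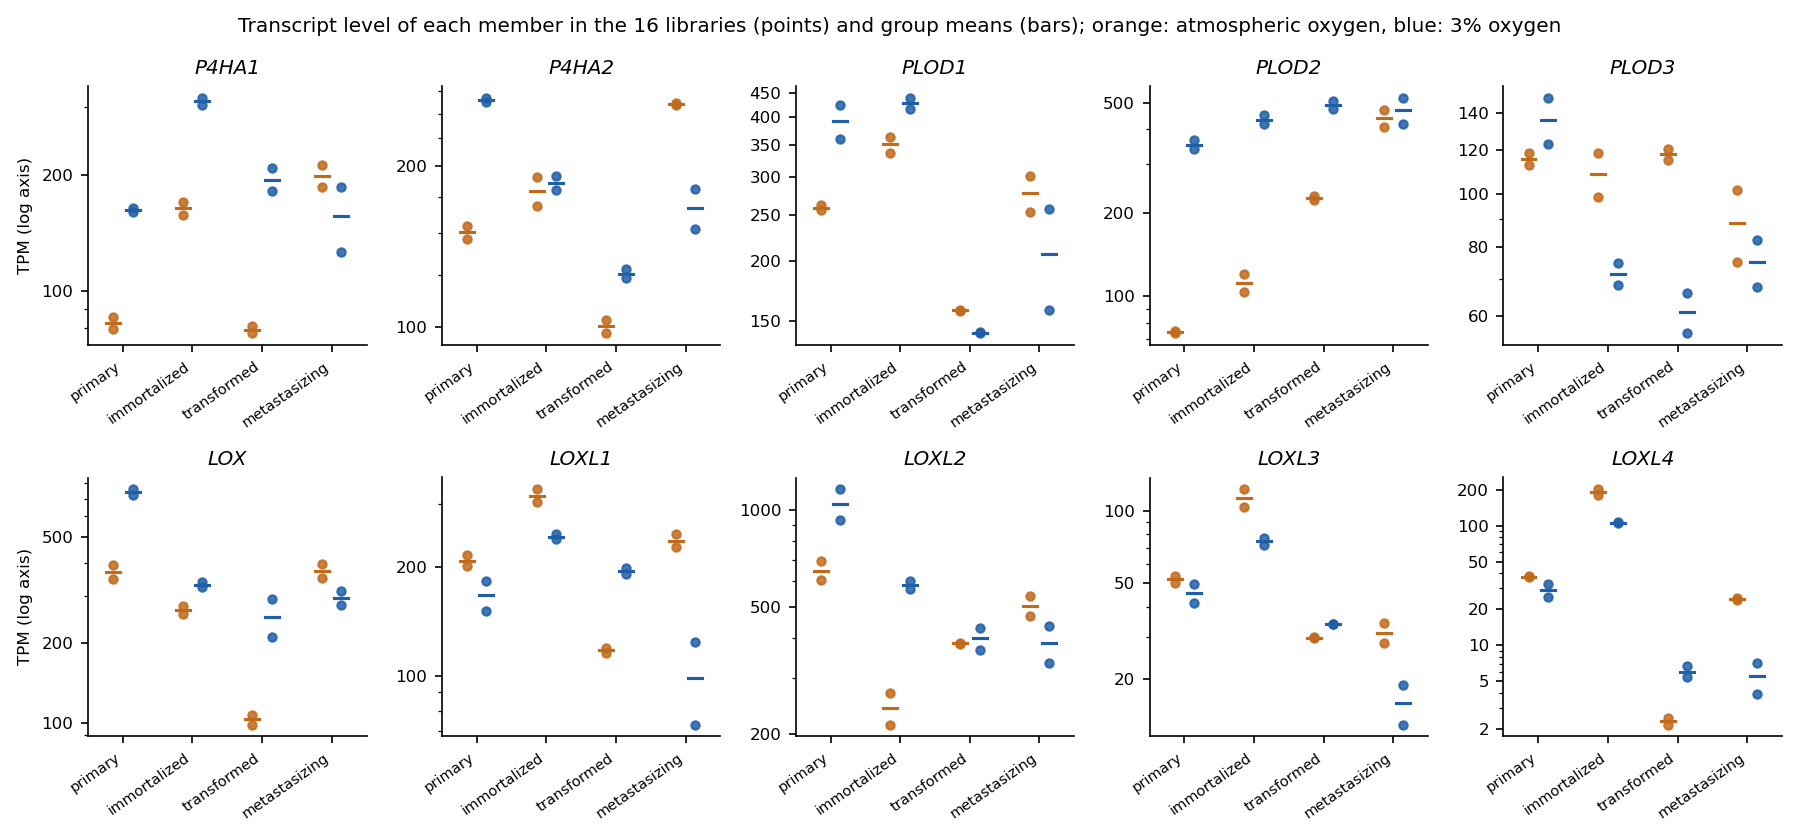
Level of each of the 10 genes in TPM (vertical log axis) by stage, with a point for each library, a bar for each group mean, orange for atmospheric and blue for 3% oxygen. PLOD2 runs from 73.6 TPM in a primary library at atmospheric oxygen to 520.5 TPM in a library labelled metastasizing at 3% oxygen, and LOXL4 spans 2.17 to 201 TPM.

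P4HA1 and P4HA2 encode the catalytic alpha subunits of the collagen prolyl 4-hydroxylase tetramer. P4HA1 (chromosome 10 of GRCh37, 74766975 to 74856732) measured 85.8 and 79.5 TPM in primary cells at atmospheric oxygen and 164 and 160.0 TPM at 3% oxygen. Immortalized cells held 170.4 and 158 TPM at atmospheric oxygen and 317 and 303 TPM at 3% oxygen, the highest values of the series for this gene. In both stages the oxygen groups did not overlap, but the change missed the fold threshold, with 1.96-fold (SE 0.15, adjusted p = 0.00111) and 1.89-fold (SE 0.15, adjusted p = 0.00148). Without primary replicate a at atmospheric oxygen, the log2 change in primary cells was 1.02 and was called. Transformed cells measured 80.9 and 77.8 TPM against 208 and 181 TPM, and here P4HA1 rose 2.44-fold (SE 0.15, adjusted p = 0.000155). At the last stage P4HA1 measured 187 and 212 TPM at atmospheric oxygen and 126 and 186 TPM at 3% oxygen. The latter were the lower ones by a narrow margin, and the log2 change of -0.37 (SE 0.15) was not called. It was -0.10 without replicate a and -0.65 without replicate b at 3% oxygen.

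P4HA2 (chromosome 5, 131525840 to 131631008) measured 155 and 146 TPM in primary cells at atmospheric oxygen and 268 and 263 TPM at 3% oxygen, a 1.76-fold difference (SE 0.09, adjusted p = 0.000218) below the fold threshold. In immortalized cells its groups overlapped, with 190.3 and 168 TPM at atmospheric oxygen and 191 and 179.9 TPM at 3% oxygen. The 95% interval of that log2 difference ran from -0.16 to 0.26, which leaves out a 2-fold change in either direction. Transformed cells had the lowest P4HA2 levels, with 97.6 and 103 TPM against 128 and 123 TPM. At the last stage P4HA2 measured 261 and 259.9 TPM at atmospheric oxygen and 152 and 181 TPM at 3% oxygen. All libraries at 3% oxygen lay lower there, with a log2 change of -0.65 (SE 0.09, adjusted p = 0.000714) that also missed the fold threshold.

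PLOD2 was the lysyl hydroxylase with calls. PLOD2, whose product hydroxylates the telopeptide lysines from which stable cross-links form, lies on chromosome 3 (145752926 to 145881512). It measured 73.6 and 74.6 TPM in primary and 120.4 and 103 TPM in immortalized cells at atmospheric oxygen, and 339 and 365 TPM and 451 and 418 TPM at 3% oxygen. Transformed cells held 230.1 and 223 TPM against 507 and 474 TPM. The oxygen groups did not overlap in these 3 stages, and PLOD2 was called in each of them under all alternatives tried, with the smallest fold in transformed cells (2.16-fold, SE 0.12, adjusted p = 8.75e-05). In the libraries labelled metastasizing, PLOD2 measured 408 and 469 TPM at atmospheric oxygen and 419 and 520.5 TPM at 3% oxygen. These values overlapped, and the 95% interval of the log2 difference was -0.16 to 0.35. The stage means at atmospheric oxygen were 74.1, 112, 226 and 438 TPM in order of stage, and those at 3% oxygen 352, 434, 490.1 and 470 TPM.

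PLOD1 (chromosome 1, 11994262 to 12035595), which hydroxylates lysines of the helical part of collagen, was called at no stage. It measured 255 and 262 TPM against 425 and 361 TPM in primary cells, and 337 and 364 TPM against 439 and 417 TPM in immortalized cells. In transformed cells it was at its lowest, with 157 and 158 TPM at atmospheric oxygen and 142 and 141 TPM at 3% oxygen. In the libraries labelled metastasizing, 302 and 254 TPM stood against 158 and 257 TPM, so that replicate b at 3% oxygen overlapped the atmospheric group and replicate a did not. PLOD3 (chromosome 7, 100849258 to 100861701) encodes an enzyme that also transfers sugars to hydroxylysine. It measured 113 and 119 TPM against 149 and 123 TPM in primary cells, and 98.6 and 119 TPM against 75.0 and 68.3 TPM in immortalized cells. Its transformed libraries held 121 and 115 TPM against 56.0 and 66.2 TPM, without overlap. The log2 change there was -0.95 (SE 0.16, adjusted p = 0.00143), just inside the fold threshold, and it was called as -1.01 when only protein-coding transcripts were summed and as -1.07 without transformed replicate b at 3% oxygen. In the libraries labelled metastasizing the PLOD3 values overlapped, with 102 and 75.3 TPM against 82.6 and 67.7 TPM.

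**Figure D2:**
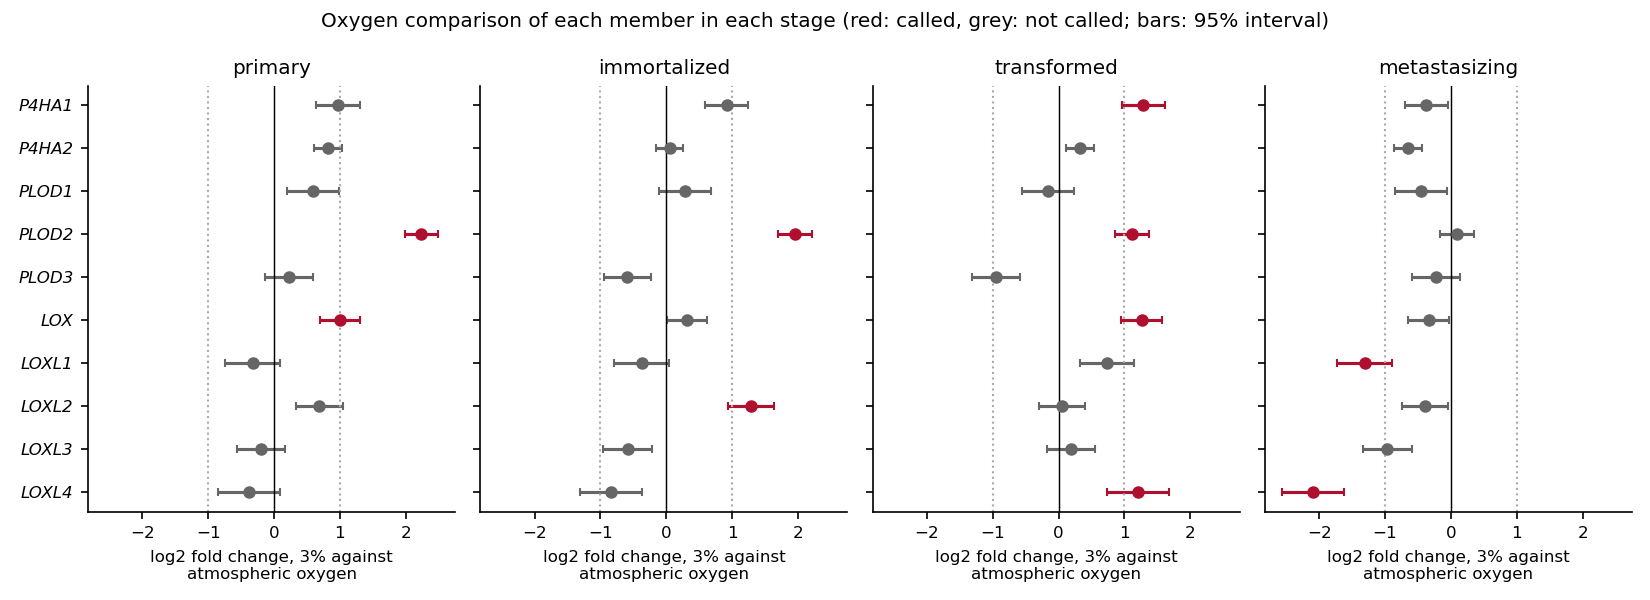
The log2 fold change of each gene at 3% against atmospheric oxygen in each stage (horizontal axis, bars are 95% intervals, dotted lines mark 2-fold). Red points passed both thresholds: PLOD2 in the first 3 stages, LOX in primary and transformed cells, LOXL2 in immortalized cells, P4HA1 and LOXL4 in transformed cells, and on the lower side LOXL1 and LOXL4 in the libraries labelled metastasizing.

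LOX, the founding lysyl oxidase (chromosome 5, 121398890 to 121414108), measured 347 and 394 TPM in primary cells at atmospheric oxygen and 722 and 758 TPM at 3% oxygen, its highest values. The change of 2.00-fold (SE 0.14, adjusted p = 0.000663) lay on the threshold. The call was kept in 9 of 14 alternatives. It was lost with both rescalings (log2 change of 0.88 each), over protein-coding transcripts (0.90), with a pseudocount of 1 (0.999), with only the libraries compared (adjusted p = 0.0111, against 0.000159 to 0.0111 over all alternatives), without primary replicate a at atmospheric oxygen (0.91) and without replicate b at 3% oxygen (0.96). Immortalized cells measured 258 and 275 TPM against 339 and 324 TPM, which was not called (log2 change of 0.31, 95% interval 0.01 to 0.62). Transformed cells measured 107 and 98.4 TPM against 292 and 209.7 TPM, where LOX rose 2.40-fold (SE 0.14, adjusted p = 0.000118). In the libraries labelled metastasizing, LOX measured 352 and 398 TPM against 278 and 314 TPM, with the 3% libraries lower and no call.

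LOXL2 (chromosome 8, 23154410 to 23282841), a lysyl oxidase with scavenger receptor domains that acts on basement membrane collagen, was the highest of the family per length in primary cells. It measured 605 and 693 TPM there at atmospheric oxygen and 1164 and 936 TPM at 3% oxygen (log2 change of 0.69, SE 0.16, under the fold threshold). Immortalized cells held 214 and 269 TPM at atmospheric oxygen and 601 and 568 TPM at 3% oxygen, and the rise of 2.43-fold (SE 0.16, adjusted p = 0.000366) was called under every alternative tried. In transformed cells the groups overlapped, with 386 and 382 TPM against 430.4 and 366 TPM, and the 95% interval of the log2 difference was -0.31 to 0.40. The last stage held 539 and 468 TPM against 335 and 435 TPM, which was lower without a call.

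LOXL4 (chromosome 10, 100007447 to 100027951), the closest relative of LOXL2 and LOXL3 in domain layout, had the widest range and the only oxygen calls in both directions. In primary cells it measured 37.9 and 37.2 TPM against 32.5 and 25.4 TPM, and in immortalized cells 179 and 201 TPM against 108 and 104 TPM, lower at 3% oxygen without a call (log2 change of -0.84, SE 0.22, adjusted p = 0.0153). Transformed cells were near the bottom of its range, with 2.48 and 2.17 TPM at atmospheric oxygen and 6.68 and 5.38 TPM at 3% oxygen, a rise of 2.30-fold (SE 0.22, adjusted p = 0.00183). That call was lost without transformed replicate a (log2 change of 1.28, adjusted p = 0.0107) or b (1.12, adjusted p = 0.0193) at atmospheric oxygen and without replicate a at 3% oxygen (1.06, adjusted p = 0.0163), while over the alternatives with all replicates the adjusted p ran from 0.000245 to 0.0160. The last stage measured 24.6 and 23.9 TPM at atmospheric oxygen and 3.93 and 7.08 TPM at 3% oxygen. In the libraries labelled metastasizing LOXL4 thus fell, with a log2 change of -2.10 (SE 0.22, adjusted p = 8.57e-05), which was -1.71 without replicate a and -2.48 without replicate b at 3% oxygen.

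LOXL1 and LOXL3 were called in none of the first 3 stages. LOXL1 (chromosome 15, 74218330 to 74244478), which is known for its part in elastic fibres, measured 216 and 201 TPM against 184 and 151 TPM in primary cells and 330.2 and 303 TPM against 247 and 240.4 TPM in immortalized cells. Transformed cells held 119 and 116 TPM against 192 and 199.8 TPM, which was higher at 3% oxygen without a call (adjusted p = 0.0118). The libraries labelled metastasizing measured 247 and 228 TPM against 73.1 and 124 TPM, and LOXL1 fell by 1.31 on the log2 scale (SE 0.19, adjusted p = 0.000647). Without replicate a at 3% oxygen the log2 change was -0.93, under the fold threshold, and without replicate b it was -1.69. From 70.2% to 88.8% of the LOXL1 level in a library came from transcripts annotated as non-coding, chiefly LOXL1-204, a retained-intron transcript of 557 bases that held 69.3% to 79.9% of a group's level. Over protein-coding transcripts alone the log2 change in the libraries labelled metastasizing was -1.66 with an adjusted p of 0.0162, a larger change that was not called, and over all alternatives the adjusted p ran from 0.000524 to 0.0574. The paper states that kallisto was run with default parameters and names no strand setting. The antisense gene LOXL1-AS1 overlaps LOXL1 and had no matched transcript among the deposited values. Whether its reads entered the LOXL1 level was not tested. Other genes of the annotation overlap all of the others except PLOD1, but those at PLOD2 and LOXL4 had no matched transcript either. Protein-coding genes with values overlap P4HA2, PLOD3, LOX, LOXL2 and LOXL3 (for LOXL2 ENTPD4, on the same strand), and a pseudogene with values overlaps P4HA1. Reads of a stretch shared with a gene that has values can be divided between the genes. LOXL3 (chromosome 2, 74759385 to 74782817) measured 50.2 and 53.9 TPM against 49.6 and 41.4 TPM in primary cells and 103 and 123 TPM against 77.5 and 72.2 TPM in immortalized cells. It stood at 29.8 and 29.6 TPM against 33.9 and 34.0 TPM in transformed cells, and at 34.2 and 28.3 TPM against 13.0 and 19.0 TPM in the libraries labelled metastasizing. The last groups did not overlap, but the log2 change of -0.96 (SE 0.17, adjusted p = 0.00197) missed the fold threshold. It passed as -1.10 without metastasizing replicate b at atmospheric oxygen and as -1.23 without replicate b at 3% oxygen.

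The difference of the oxygen effect between stages was then tested directly. None of the 10 genes differed between immortalized and primary cells (1.86% of all genes tested did), where P4HA2 came closest (-0.77, SE 0.13, adjusted p = 0.00720, under the fold threshold). Between transformed and immortalized cells 3 of the 10 differed, against 12% of all genes: LOXL4 (2.04, SE 0.30, adjusted p = 0.000676) and LOXL1 (1.11, SE 0.27, adjusted p = 0.00903) responded more upward in transformed cells, and LOXL2 less (-1.23, SE 0.23, adjusted p = 0.00222). LOXL1 kept that call in 7 of 14 alternatives and in 2 of 16 fits without 1 library, and its adjusted p ran from 0.000381 to 0.168. LOXL2 was -0.94 and not called with quantile normalization. LOX, not called in the main fit, was called with quantile normalization (1.11) and with median-ratio rescaling (1.10). Between the libraries labelled metastasizing and transformed cells 6 of the 10 differed, all downward, against 8.47% of all genes in either direction. Over protein-coding transcripts alone LOXL1 (-2.09, adjusted p = 0.0301) and LOXL3 (-1.15, adjusted p = 0.0135) were not among them. With median-ratio rescaling PLOD2 was not called (-0.91). With quantile normalization LOXL3 was not called (-0.97) and P4HA2 was (-1.001). Over all transcripts LOXL4 differed by -3.30 (SE 0.30, adjusted p = 7.85e-05), LOXL1 by -2.05, P4HA1 by -1.66, LOX by -1.60, LOXL3 by -1.15 and PLOD2 by -1.02. Without replicate a at 3% oxygen of the metastasizing group these were -2.91, -1.67, -1.38, -1.51, -0.89 and -0.86, so LOXL3 and PLOD2 were no longer called. Without replicate b they were -3.69, -2.43, -1.94, -1.69, -1.42 and -1.17, all called, and P4HA2, at -0.97 with both libraries, was called as well (-1.10). The number of all genes called was 1066 with both libraries, 1277 without replicate a and 1698 without replicate b. Comparing the mean effect of the later pair of stages with that of the earlier pair, PLOD2 (-1.49, SE 0.12, adjusted p = 2.1e-05) and LOXL2 (-1.16, SE 0.16, adjusted p = 0.000421) differed, against 7.87% of all genes. Without metastasizing replicate a at 3% oxygen these were -1.42 and -1.07, and without replicate b -1.57 and -1.25, all called. With median-ratio rescaling LOXL2 fell under the fold threshold in this comparison (-0.96). These comparisons share libraries and are not independent of each other.

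Levels also differed between neighbouring stages. From primary to immortalized cells at atmospheric oxygen, LOXL3 rose 2.15-fold (SE 0.17, adjusted p = 0.000449), LOXL4 rose 5.01-fold (SE 0.22, adjusted p = 1.53e-05) and LOXL2 fell by 1.43 on the log2 scale (SE 0.16, adjusted p = 5.58e-05), where 5.98% of all genes rose and 6.26% fell. The LOXL3 change was 0.98 and not called without immortalized replicate b at atmospheric oxygen. P4HA1 at this atmospheric step was 0.99 on the log2 scale (SE 0.15, adjusted p = 0.000452), just inside the fold threshold. It was called with median-ratio rescaling (1.06), quantile normalization (1.01) and over protein-coding transcripts (1.003). At 3% oxygen LOXL4 rose 3.64-fold and LOX fell by 1.16 on the log2 scale (SE 0.14, adjusted p = 0.000135), against 4.19% and 5.04% of all genes.

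The step to the SV40 Large-T stage held most of the falls. At atmospheric oxygen 6 of the 10 fell and 1 rose, against 11.2% and 13.2% of all genes. LOXL4 fell by 6.08 on the log2 scale (SE 0.22, adjusted p = 8.58e-09), from about 190.3 TPM to about 2.33 TPM on average. LOXL3 changed by -1.91, LOXL1 by -1.43, LOX by -1.37, PLOD1 by -1.15 and P4HA1 by -1.04, while PLOD2 rose 2.03-fold (SE 0.12, adjusted p = 2.75e-05). Over protein-coding transcripts alone LOXL1 (-1.22, adjusted p = 0.0331) and PLOD2 (0.999) were not called. The scale mattered at this step: with median-ratio rescaling the all-gene median went from 0.22 to -0.01 and the genes that rose and fell from 1632 and 1384 to 1066 and 1776. PLOD2 was then 0.79 and no longer called, P4HA2 was called as -1.06, and PLOD3 moved from 0.13 to -0.10 without a call. PLOD2 also lost its call without immortalized replicate b (0.91) or transformed replicate a (0.99) at atmospheric oxygen, as did P4HA1 without immortalized replicate a (-0.99). At 3% oxygen none rose and 3 fell, against 8.96% and 7.38% of all genes, with log2 changes of -4.03 (SE 0.22) for LOXL4, -1.59 (SE 0.18) for PLOD1 and -1.13 (SE 0.17) for LOXL3.

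From transformed cells to the libraries labelled metastasizing at atmospheric oxygen 5 of the 10 rose and none fell, against 2.4% and 1.72% of all genes. LOXL4 rose 8.77-fold (SE 0.22, adjusted p = 1.83e-05), LOX 3.63-fold (SE 0.14, adjusted p = 2.92e-05), P4HA2 2.59-fold, P4HA1 2.50-fold and LOXL1 2.02-fold. The LOXL1 call was lost without either library of either group (log2 changes of 0.95 to 1.07) and over protein-coding transcripts (0.86). PLOD2 was 0.95 on the log2 scale, just inside the fold threshold. At 3% oxygen none rose and 2 fell, LOXL3 and LOXL1, against 1.99% and 3.93% of all genes. LOXL1 was not called over protein-coding transcripts alone (-1.23, adjusted p = 0.0562). Over all transcripts the log2 changes were -1.09 for LOXL3 (adjusted p = 0.00108) and -1.04 for LOXL1 (adjusted p = 0.00282). Without metastasizing replicate a at 3% oxygen these were -0.82 and -0.66, and neither was called. Without replicate b they were -1.35 and -1.42, both called, and the number of all genes called at this step was 727 with both libraries, 799 without replicate a and 1190 without replicate b.

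**Figure D3:**
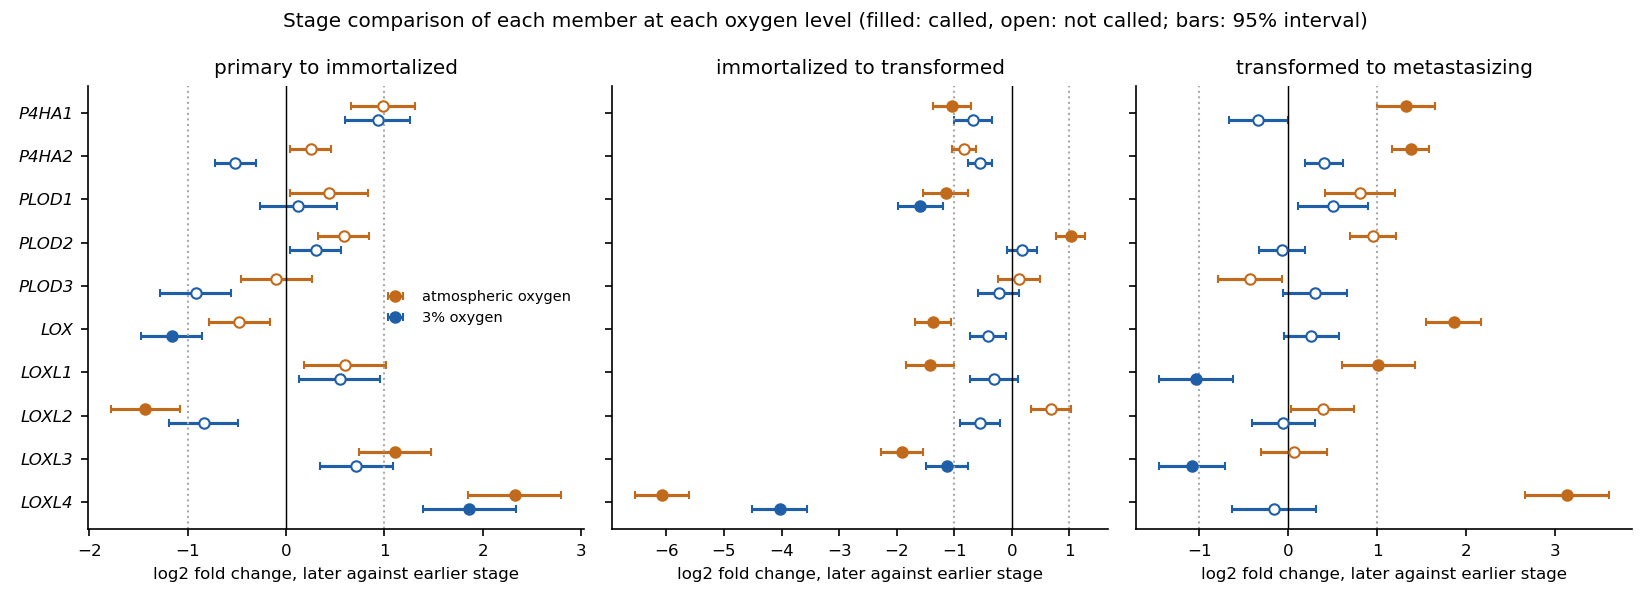
The log2 fold change of each gene from one stage to the next (horizontal axis, different range in each panel, bars are 95% intervals), orange at atmospheric and blue at 3% oxygen, with filled points for called changes. LOXL4 has the largest changes of the 10 genes, -6.08 and -4.03 at the step to transformed cells.

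The transcripts behind these totals were examined because PLOD2 and P4HA1 are each made in forms that differ by 1 internal exon. In PLOD2 it is exon 14 of 20 of transcript PLOD2-201, 63 bases long and thus 21 codons, which PLOD2-202 skips (coding lengths of 2274 and 2211 bases). In P4HA1 exon 9 has alternative copies of equal length, 71 bases, of which 43 are identical at the same position. P4HA1-203 holds the copy that lies downstream in the gene and P4HA1-202 the upstream one, and both have a coding length of 1602 bases. The exons are shown because reads across them tell the forms apart. They were read from GRCh37 on the minus strand, 5′ to 3′, at chr3:145795649-145795711 for PLOD2, chr10:74803645-74803715 for the downstream and chr10:74804739-74804809 for the upstream exon of P4HA1.
PLOD2 exon 14: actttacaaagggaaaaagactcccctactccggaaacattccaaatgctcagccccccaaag
P4HA1 downstream exon 9: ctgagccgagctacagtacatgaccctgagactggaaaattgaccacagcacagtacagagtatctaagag
P4HA1 upstream exon 9: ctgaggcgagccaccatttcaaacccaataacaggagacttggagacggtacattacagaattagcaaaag

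The form of PLOD2 that skips the exon was a minor one in every library. Of the TPM in transcripts that show the exon choice, it took 3.53% and 1.94% in primary cells at atmospheric oxygen and 7.45% and 7.99% at 3% oxygen. Immortalized cells had 3.82% and 0.856% against 5.72% and 4.13%, again higher at 3% oxygen. Transformed cells had the highest shares, 16.9% and 16.5% against 15.9% and 17.8%, with overlapping groups, and the libraries labelled metastasizing had 8.95% and 9.78% against 10.8% and 13.6%. In TPM the skipping form averaged 1.97 and 27.0 in primary cells, 2.70 and 21.3 in immortalized cells, 37.2 and 81.5 in transformed cells and 40.7 and 57.3 in the libraries labelled metastasizing, at atmospheric and 3% oxygen. The form with the exon averaged 70.2 and 322 TPM in primary cells, so both forms were higher at 3% oxygen.

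P4HA1 transcripts with the downstream exon took 50.2% and 50.6% in primary cells at atmospheric oxygen and 61.0% and 57.8% at 3% oxygen. Immortalized cells had 49.2% and 50.8% against 61.7% and 58.6%, a similar gap without overlap. Transformed cells had 59.9% and 64.4% against 65.7% and 61.7%, which overlapped, and the libraries labelled metastasizing had 67.1% and 65.6% against 68.3% and 70.8%. The share of the downstream exon was thus lowest in the first stages at atmospheric oxygen and highest at the last stage. Shares by exon were described after the data were seen and carry no test, and kallisto estimates how reads divide among transcripts.

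**Figure D4:**
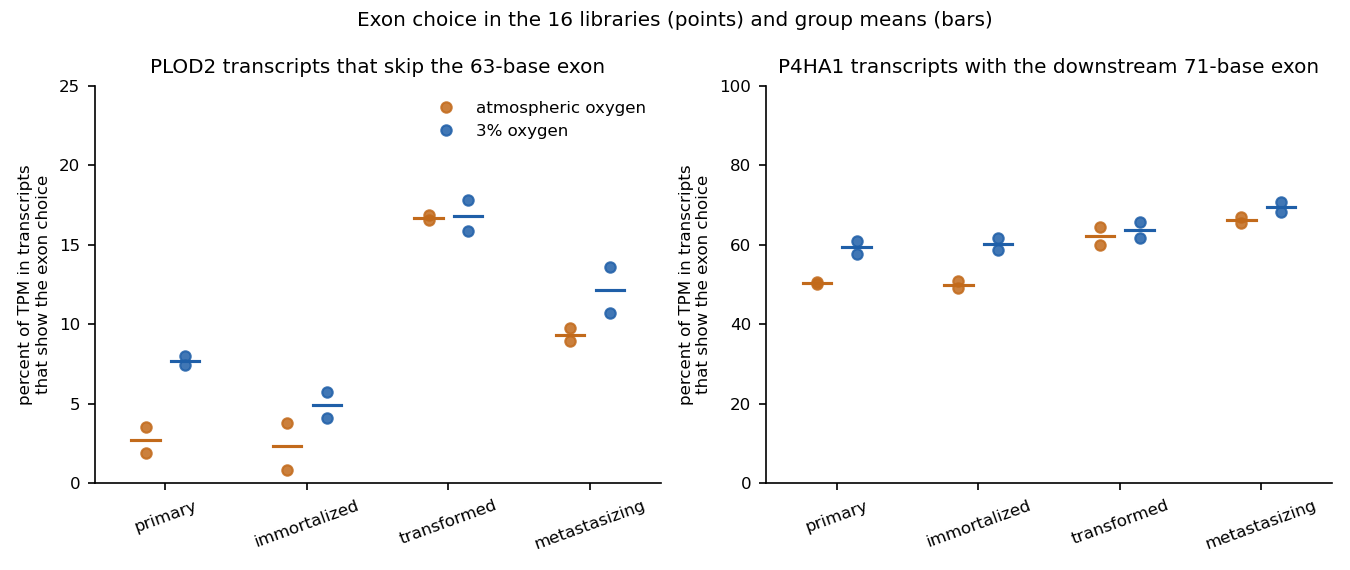
Share of PLOD2 transcripts that skip the 63-base exon (left) and of P4HA1 transcripts with the downstream 71-base exon (right), in percent of the TPM in transcripts that show the choice, with a point for each library and a bar for each group mean. The PLOD2 share is highest in transformed cells (15.9% to 17.8%), and the P4HA1 share runs from 49.2% to 70.8%.

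Single transcripts were tested for a shift of their share between oxygen levels over the 4 stages, with an exact two-sided permutation of the oxygen label within stages. Transcripts with at least 10% of their gene in a group were used, in genes with at least 2 such transcripts, and where a gene had just 2 the first by identifier was tested, since the other mirrors it. Of 98 transcripts of the 10 genes, 17 from 7 genes were tested, and p-values were adjusted over all 34845 transcripts of the table chosen in the same way. None of the 17 passed an adjusted p of 0.05, and 0% of all transcripts did. The smallest p the design allows, 0.00154, corresponded to an adjusted p of 0.252. At an unadjusted p under 0.05 there were 10 of the 17, against 10.4% of all transcripts. They came from P4HA1, P4HA2, PLOD2 and LOXL1 alone, and shares within a gene depend on each other, so they are not separate results. The smallest p was reached by P4HA2-202, whose share went from a mean of 46.2% to 39.1% and was lower at 3% oxygen in all 4 stages, and by P4HA2-207, from 7.43% to 10.2% and higher in all 4. P4HA1-203 went from 42.2% to 48.0% and was higher at 3% oxygen in all 4 stages (unadjusted exact permutation p = 0.00617).

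Promoters were searched for ACGTG and GCGTG, the core letters to which hypoxia-inducible factors bind, on both strands of the 250 bases before the start site. RefSeq windows (GRCh38.p14) were found for 9 of the 10 genes and placed on GRCh37 by exact match, the window used being the one at the start of the gene's most abundant transcript where several were listed. Of these, 4 held a match, LOX with 4, PLOD2 with 3, PLOD1 with 2 and P4HA1 with 1, where 43.1% of 27305 promoters held at least 1 and 7.89% at least 3. The matches of genes that were called higher at 3% oxygen are shown, in capitals, with their flanks, 5′ to 3′ along the gene's minus strand of GRCh37. They lie at chr3:145879161-145879190 and chr3:145879103-145879127 for PLOD2, chr10:74856696-74856720 for P4HA1, and chr5:121414125-121414149, chr5:121414045-121414073 and chr5:121413982-121414006 for LOX.
PLOD2 first: agcgctGCGTGagcctccaCACGTagccgc
PLOD2 second: aacagtccagACGTGgggcccagga
P4HA1: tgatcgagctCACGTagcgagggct
LOX first: tccctgtgcaACGTGtctgggggga
LOX second: ttgCACGTttccaatcgcattACGTGaac
LOX last: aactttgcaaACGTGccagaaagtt
A match is a description of letters and does not show that a factor bound there. LOXL4, which was called in both directions, held no match in its window. The gene without a window was LOXL2, which was called higher in immortalized cells.

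Genes that work beside these enzymes were counted from lists chosen with earlier results of these data known. For these lists and those below, calls in the libraries labelled metastasizing are given only with both libraries at 3% oxygen, which stood apart. Of 7 other genes of collagen prolyl hydroxylation, P3H2, a prolyl 3-hydroxylase, rose at 3% oxygen in primary (log2 change of 1.40, SE 0.19) and transformed cells (1.75, SE 0.19), and P3H1 fell in the libraries labelled metastasizing (-1.20, SE 0.16), with no other call. Of 8 genes of collagen folding and glycosylation, only the collagen chaperone SERPINH1 was called, lower in primary cells (-1.06, SE 0.11) and in the libraries labelled metastasizing (-1.03, SE 0.11). Of 8 procollagen processing genes, PCOLCE2, an enhancer of the C-proteinase, rose in immortalized cells (1.57, SE 0.33), and ADAMTS14, an N-proteinase, fell in immortalized cells (-1.70, SE 0.20) and in the libraries labelled metastasizing (-1.54, SE 0.20). None of the 5 copper supply genes was called, with 3 or 4 of them tested.

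Among 8 genes of elastic fibres and lysyl oxidase partners, FBN1 (1.43, SE 0.17) and FN1 (1.37, SE 0.29) rose in immortalized cells, FBN2 rose (1.23, SE 0.26) and POSTN fell (-3.01, SE 0.22) in transformed cells, and none was called in the other stages. The substrates themselves, 9 fibrillar collagen chains of which 7 were tested, had no call in primary cells and 1 rise and 1 fall in immortalized cells, those of the minor chains COL11A1 (1.45, SE 0.22) and COL5A3 (-2.09, SE 0.26). In transformed cells COL11A1 rose (1.96, SE 0.22) and COL5A3 (-3.02, SE 0.26) and COL1A1 (-2.05, SE 0.43), a chain of type I collagen, fell. In the libraries labelled metastasizing 6 of 7 were called lower, with a median log2 change of -1.62 over the 7. COL1A1 was also lower there, from a mean of 627 to 211 TPM, but was not called. COL3A1 changed there by -2.37 (SE 0.43) and COL1A2 by -2.20 (SE 0.43). These falls rest on libraries at 3% oxygen that stood apart, and no fit without each of them is given. Of 12 hypoxia reference genes, 11 tested, 3, 5, 6 and 1 rose from the primary to the last stage and none fell. They were led by PDK1 in primary cells (2.02, SE 0.18), by CA9 in immortalized (3.63, SE 0.48) and transformed cells (5.74, SE 0.48), with VEGFA (2.29, SE 0.23) and NDRG1 (4.57, SE 0.30) also up in the latter, and NDRG1 was the 1 called at the last stage (2.20, SE 0.30). Markers moved as well: KRT18 rose in immortalized cells (1.24, SE 0.13) and in the libraries labelled metastasizing (1.76, SE 0.13), ACTA2 (-2.95, SE 0.38) and CNN1 (-1.18, SE 0.19) fell in primary cells, CNN1 rose in immortalized cells (1.16, SE 0.19), and the leukocyte marker CD14 fell in immortalized cells (-2.30, SE 0.29), from a mean of 3.01 to 0.214 TPM. Of the 10 fibroblast markers 5 fell in the libraries labelled metastasizing, LUM (-2.79, SE 0.44), DCN (-2.53, SE 0.34), PDGFRB (-1.38, SE 0.15), COL3A1 and COL1A2. PDGFRB also fell in primary cells (-1.60, SE 0.15) and DCN in immortalized cells (-1.63, SE 0.34), and in transformed cells COL1A1 fell and FAP rose (2.01, SE 0.17). Of 6 cell division genes, MKI67 rose in primary (1.19, SE 0.24) and immortalized cells (1.11, SE 0.24), and CCNB1 rose in immortalized cells (1.01, SE 0.15). Their part in the results was not tested.

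The genes whose 8 group means ran most like each enzyme were taken from 8781 protein-coding genes, as a description over groups that share libraries. For PLOD2 they were PGK1 (Pearson's r of 0.98), TPI1 (0.98) and AK4 (0.98). P4HA1 was closest to TCAF2 (0.97), NT5E (0.96) and FUT11 (0.95), and LOX to ZNF578 (0.97), ABCA4 (0.95) and VKORC1 (0.94). LOXL4 was closest to L3MBTL3 (0.99), DPYSL2 (0.98) and CD109 (0.97), LOXL3 to JUP (0.98), CTSO (0.97) and VPS13C (0.96), LOXL1 to ANXA9 (0.98), RDH5 (0.97) and L1CAM (0.97), and LOXL2 to PSG3 (0.97), PRTFDC1 (0.96) and ELL2 (0.95). PLOD1 was closest to F2RL2 (0.98), PLPP5 (0.98) and PDIA6 (0.97), PLOD3 to QRFP (0.98), ADCK5 (0.93) and SLC35C1 (0.92), and P4HA2 to PGM3 (0.91), RAB4B-EGLN2 (0.90) and ZNF215 (0.90). Within the 10 genes, LOXL4 ran with LOXL3 (0.87), PLOD1 (0.87) and LOXL1 (0.84), LOX with P4HA2 (0.86), and P4HA1 and PLOD3 ran in opposite directions (-0.62). PLOD2 had r between -0.61 and 0.64 with the other 9.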

How the data were processed

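RNA from 16 libraries, 8 groups of 2, was prepared by the authors with a poly-A selecting stranded kit and sequenced on a HiSeq2500. Per the submitters' processing notes, transcripts were quantified with kallisto 0.42.1 on GRCh37, and the deposited values are TPM per transcript, with library totals of 1000000. The authors tested estimated counts, which TPM do not hold, so that test was not repeated and depth is unknown. Of 180253 transcripts, 151453 were matched to GENCODE 44 (lifted to GRCh37), holding 88.2% to 90.1% of the TPM, and summed by gene. Log2(TPM + 0.5) was fitted in limma 3.58.1 (R 4.3.3) with 8 group coefficients (8 residual degrees of freedom) and a trend of variance with level, on protein-coding genes whose mean reached 1 TPM in a compared group. Benjamini-Hochberg adjustment ran over all genes tested, with calls at an adjusted p under 0.01 and 2-fold. Transcript shares used transcripts with at least 10% of their gene in a group, of genes with several such transcripts (1 of the pair where there were 2), and were adjusted over the whole table in place of the 10 genes alone. Scripts were tested on simulated data. Python 3.11.15, pandas 2.3.3, numpy 2.4.6 and matplotlib 3.10.9 were used.

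The 10 genes and all lists were chosen with earlier results of these data known. All 10 are named. From other lists, genes called in an oxygen comparison are named, at most 4 of a list by size of change (COL11A1, PDGFRB and FAP fall outside this limit and were named after their values were seen), and likeness is given for the closest genes by Pearson's r among genes of at least 1 TPM and a log2 range of at least 1. Alternatives were pseudocounts of 1 and 0.1, no filter or one at 5 TPM, median-ratio rescaling, quantile normalization, only the libraries compared, a replicate block, no trend, array weights, all genes, no fold threshold and each library left out. Added after seeing the data were blocks by pair, a crossed block and protein-coding transcripts only.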

Additional observations from a re-analysis of the deposited data

Results flagged for a closer look

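The oxygen effect, tested for its difference between stages with limma, differed in 11 cases among the 10 genes. From immortalized to transformed cells the log2 effect differed by 2.04 for LOXL4, 1.11 for LOXL1 and -1.23 for LOXL2. LOXL4 was lower at 3% oxygen in both immortalized libraries and higher in both transformed libraries, whereas LOXL2 was higher in both immortalized libraries and overlapped in transformed cells. From transformed cells to the libraries labelled metastasizing it differed by -3.30 for LOXL4, -2.05 for LOXL1, -1.66 for P4HA1, -1.60 for LOX, -1.15 for LOXL3 and -1.02 for PLOD2. Over protein-coding transcripts alone the LOXL1 and LOXL3 differences between these stages were not called. For LOXL4, LOXL1, P4HA1 and LOX the libraries at 3% oxygen lay above those at atmospheric oxygen in transformed cells and below them in the libraries labelled metastasizing. Of all genes tested, 37.3% lay above without overlap in transformed cells and 37.0% below in the libraries labelled metastasizing. Between the later and the earlier pair of stages the mean effect differed by -1.49 for PLOD2 and by -1.16 for LOXL2. The least stable of these were the LOXL1 difference from immortalized to transformed cells and the LOXL3 difference. They were called in 2 and 7 of the 16 fits that left out a library. The LOXL2 difference from immortalized to transformed cells and the PLOD2 difference from there to the last stage also lost their calls in some of these fits.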

How the results depend on the processing

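Over the 4 oxygen comparisons 10 changes were called, 5 when only the libraries compared were fitted, which leaves fewer samples to estimate the spread, and 17 without a fold threshold. Over the 6 stage comparisons 22 were called, and 34 without a fold threshold. For the differences between stages 11 were called, 6 with only the libraries compared and 17 without a fold threshold. No transcript share was called in the main test or over protein-coding transcripts alone, and the other settings gave no adjusted p. In the main test even the smallest exact permutation p, 0.00154, had an adjusted value of 0.252. Adjustment over the transcripts of the 10 genes alone, as first planned, was not used. The letters a and b did not pair the libraries: correlations of their deviations were -0.17, -0.13, -0.08 and -0.12 over the 4 stages. With the letter as a replicate block 10 oxygen changes were again called, as with blocks by pair and with a crossed pairing, both chosen after seeing the data. Of the differences between stages, LOXL1 from immortalized to transformed cells was lost with the replicate block (adjusted p = 0.014), by pair (0.0267) and crossed (0.0116). Blocks by pair also lost LOXL2 at that step (0.0193) and LOXL3 from there to the last stage (0.0368), and the crossed block lost PLOD2 at the latter (0.0137). In fits that leave out a library, the remaining one is assumed to vary like the other groups.

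Directions reversed only for uncalled changes. Log2 values turned to -0.088 (median-ratio) and -0.036 (quantile) for P4HA2 in immortalized cells, -0.10 (median-ratio) for PLOD3 at the atmospheric step to transformed cells, -0.0030 (quantile) for LOXL3 at the next atmospheric step, 0.14 (protein-coding transcripts) for LOXL1 between immortalized and primary cells, and, between later and earlier stages, 0.0031 (median-ratio) for LOX and -0.00074 (pseudocount 0.1) for LOXL3. Leaving out single libraries gave -0.036 to 0.14 for P4HA2 in immortalized cells, -0.068 to 0.16 for LOXL2 in transformed cells and -0.061 to 0.25 for PLOD2 in the libraries labelled metastasizing. At the atmospheric steps it gave -0.23 to 0.035 for PLOD3 from primary to immortalized cells, -0.0063 to 0.26 for PLOD3 from there to transformed cells and -0.070 to 0.20 for LOXL3 at the last step. At the last step at 3% oxygen it gave -0.22 to 0.087 for PLOD2, -0.25 to 0.13 for LOXL2 and -0.55 to 0.22 for LOXL4. For the differences it gave -0.11 to 0.0028 for P4HA1 and -0.19 to 0.087 for LOXL1 between immortalized and primary cells, -0.65 to 0.046 for PLOD1 between the last stages, and -0.13 to 0.25 for LOXL1, -0.13 to 0.14 for LOXL3 and -0.032 to 0.36 for LOXL4 between later and earlier stages. The causes were not tested. Depth limits low values such as LOXL4 in transformed cells by an unknown amount.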
